A study of Homo sapiens with 8 samples.

Results

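The chromosome 1 tRNA loci are the places on chromosome 1, away from its first 2 Mb, its centromere and its 5S rRNA array, where the POLR3A ChIP-seq lists of this series hold regions. A region was taken when its midpoint, in hg19, lay from 2 to 120 Mb or from position 145000000 to 249.25 Mb, and the array from 228.7 to 228.8 Mb was left out. The rule took 47 of the 1222 regions in the 4 lists, and regions that overlapped between lists merged into 23 loci of 788 merged regions in all. The loci are numbered 1 to 23 along the chromosome. Group A, from 145.4 to 149.7 Mb, has 9 loci. Group B, from 161.4 to 161.6 Mb, has 8. Group C, at 167.7 Mb, has 2, group D, at 249.2 Mb, has 1, and 3 further loci stand alone. The rule used positions only, but it was chosen with earlier results of these data known. That tRNA genes lie under these regions was not tested, since no hg19 annotation was used here.

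The cells were MDA-MB-231, an established human breast cancer line, and MDA-LM2, a highly metastatic line derived from it, and the labels name no further genotype or treatment for either. Each line had 2 POLR3A ChIP libraries, called replicates 1 and 2, and the 4 input libraries of the series were not analysed here. Replicates 1 and 2 of MDA-MB-231 listed 646 and 18 regions, and replicates 1 and 2 of MDA-LM2 listed 86 and 472. Sequencing depth is unknown, the libraries of a line differ more in list length than the lines do, and nothing in the labels says that replicates came from separate cultures, so p-values measure only the spread between these libraries, which may be technical. The lines are compared to learn where RNA polymerase III occupancy differs with metastatic capacity.

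RNA polymerase III makes tRNAs, 5S rRNA and other short RNAs, and POLR3A is its largest subunit and carries part of its active site. At a tRNA gene the factor TFIIIC binds 2 promoter elements inside the gene, the A box and the B box, and brings in TFIIIB just upstream, which in turn recruits the polymerase. A tRNA gene is much shorter than the sheared fragments of a ChIP library, so a bound gene standing alone would give a compact region. Regions here are not counts of bound genes. Symbols such as TRG-GCC name the amino acid in 1 letter (G, glycine) and the anticodon.

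Chromosome 1 carries many tRNA genes, and some anticodons have most of their genes there. Of 443 nuclear tRNA genes in the RefSeq table of GRCh38.p14, 98 are on chromosome 1, with 20 anticodons. Asparagine genes with anticodon GTT are the most numerous, with 22 of the genome's 26. Glycine genes follow with 8 of 11 for CCC, 7 of 9 for TCC and 6 of 13 for GCC. Of the glutamate genes, 8 of 12 with TTC and 6 of 8 with CTC are on this chromosome, as are 6 of 9 leucine genes with CAG and 5 of 13 aspartate genes with GTC. Valine genes with CAC count 7 of 15 and glutamine genes with CTG 5 of 13, and the counts of other anticodons are not given here. Of 62 runs of tRNA genes without another gene in between, 52 hold 1 gene. The longest run has 26 tRNA genes, from TRE-TTC4-2 to TRG-GCC4-1. In it the order TRE-CTC, TRG-TCC, TRD-GTC, TRL-CAG and TRG-GCC recurs. Between HJV and RNVU1-6 the neighbours are TRE-CTC1-1, TRG-TCC2-1, TRH-GTG1-1 and TRK-CTT2-1. Pairs of neighbours include TRP-CGG1-1 with TRP-AGG2-1, both for proline, and TRK-TTT3-1 with TRK-TTT3-2, both for lysine. Others are TRG-CCC6-1 with TRV-CAC5-1 and TRL-CAG1-6 with TRG-TCC2-6, and not every pair is named here. The last pair along the chromosome is TRL-CAA4-1 with TRE-CTC2-1. These names and neighbours come from another build than the regions, so no region was tied to a gene. Genes that share an anticodon and the number after it are copies of 1 mature sequence. The sources used here do not give how reads that match several copies were treated, which leaves the split of signal among such copies uncertain.

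Replicate 1 of MDA-MB-231 listed 20 regions at the chromosome 1 loci, replicate 2 of MDA-MB-231 listed 4, replicate 1 of MDA-LM2 listed 10 and replicate 2 of MDA-LM2 listed 13. The libraries of MDA-MB-231 gave both the highest and the lowest count, and the counts of MDA-LM2 lay between them. The mean was 12 ± 11.3 regions in MDA-MB-231 and 11.5 ± 2.12 in MDA-LM2 (SD, n = 2 each), a difference of -0.5 for MDA-LM2 minus MDA-MB-231. A two-sided exact permutation test gave p = 1, where 2 libraries against 2 allow none below 0.333. The sign of the difference depended on the libraries kept: leaving out replicate 1 or 2 of MDA-MB-231 made it 7.5 or -8.5, and leaving out replicate 1 or 2 of MDA-LM2 made it 1 or -2. In the order of the libraries above, the summed widths came to 10.5, 0.897, 2.64 and 4.69 kb.

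**Figure D1:**
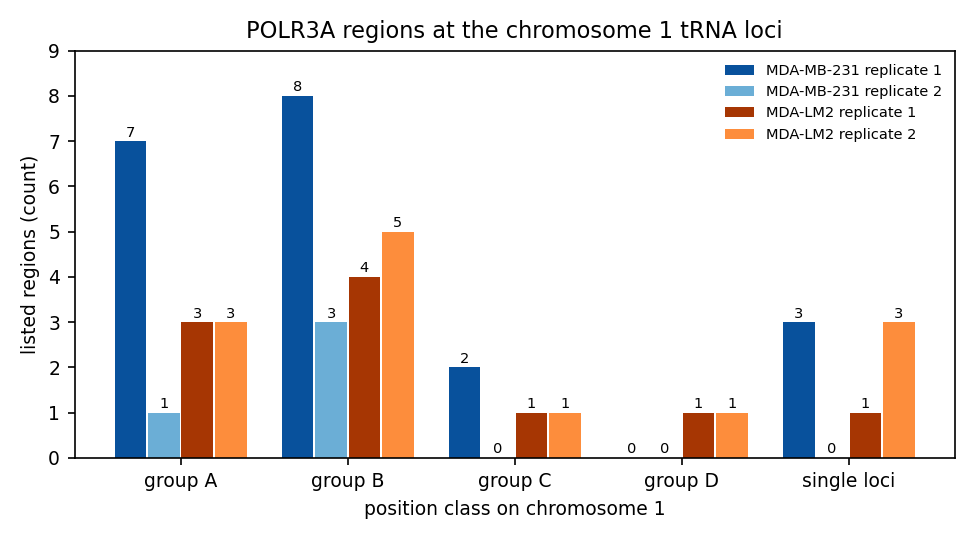
The number of listed regions (vertical axis) in each library (bar colour) is shown for groups A to D and for the 3 single loci. Group D has no bar for MDA-MB-231 and 1 region in each MDA-LM2 library, while group B has regions in all 4 libraries, from 3 to 8.

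As a share of its own list, the chromosome 1 loci made up 3.10% of replicate 1 of MDA-MB-231 (exact Clopper-Pearson 95% interval 1.90 to 4.74%) and 22.2% of replicate 2 of MDA-MB-231 (6.41 to 47.6%). In MDA-LM2 the shares were 11.6% of replicate 1 (5.72 to 20.3%) and 2.75% of replicate 2 (1.47 to 4.66%). Intervals cover counting error only and treat the regions of a list as independent. Regions can share a locus: the 10 regions of replicate 1 of MDA-LM2 lay at 9 loci, and the 13 of replicate 2 of MDA-LM2 at 12. The share was high in the short list of each line and low in the long one. Regions are not replicates of a line, so the intervals do not test libraries or lines against each other. List length cannot be told apart from other differences between these libraries.

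Of the 23 loci, 3 were listed in all 4 libraries, against 1.27% of all merged regions of the series. At least 3 libraries listed 7 of the 23, against 7.23% of all. Both lines listed 11 loci (36.8% of all merged regions), and 11 were listed in 1 library only (62.8% of all). Replicate 1 of MDA-MB-231 alone listed 9, a number to be read against 42.0% of all merged regions that this long list alone holds. In MDA-LM2 alone, 1 locus was listed in both replicates (0.381% of all merged regions), and the same pattern in MDA-MB-231 alone occurred at no locus (0.00% of all). Replicate 2 of MDA-MB-231 with its 18 regions limits these counts: without it, 6 loci were in every remaining library. Among the strongest 50% of each list by log p score only 1 locus was in all 4 libraries, and a reciprocal overlap of 50% left 4 loci in at least 3.

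**Figure D2:**
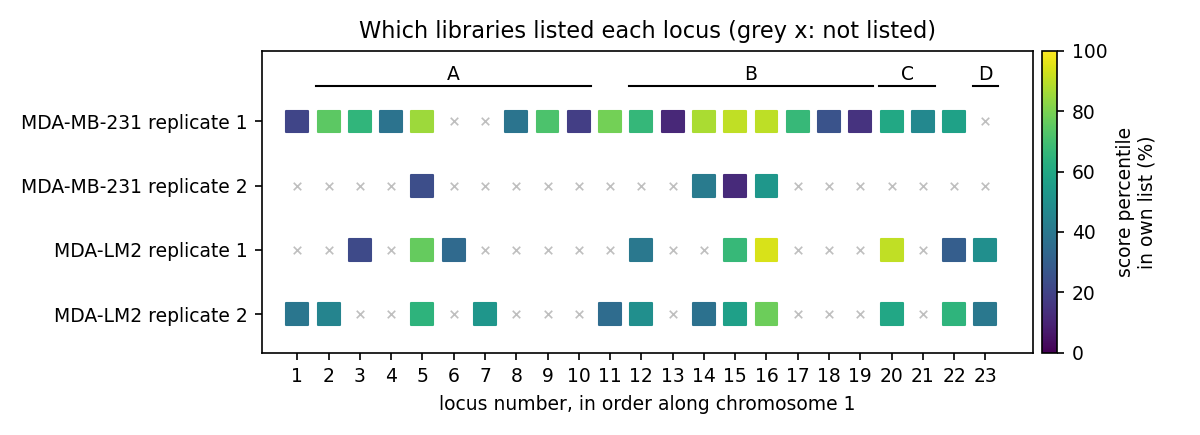
Each square marks a library (row) that listed a locus (column, numbered along chromosome 1), and its colour gives the percentile of the authors' strength score within that library's own list. Loci 5, 15 and 16 have a square in all 4 rows, and locus 23 has squares in the MDA-LM2 rows only.

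Group B was the group with the most shared loci, 4 of its 8 being listed in at least 3 libraries (7.23% of all merged regions). The other 4 were listed in replicate 1 of MDA-MB-231 alone, against 42.0% of all merged regions. Group B spans 223 kb. Locus 16, at chr1:161509772-161510431, was the strongest chromosome 1 locus in 3 libraries and the runner-up in replicate 1 of MDA-MB-231. The authors' strength score there was 27.2 in replicate 1 of MDA-MB-231, 13.8 in replicate 2 of MDA-MB-231, 13.3 in replicate 1 of MDA-LM2 and 18.7 in replicate 2 of MDA-LM2. The score has no stated definition and is read only within a list. As a percentile, the percentage of the other regions of the same list with a lower score, these are 90.2, 52.9, 94.1 and 77.7. The deposited pile-up height, a whole number that shows no scaling to depth, was 41, 17, 19 and 30. The same place thus headed the chromosome 1 loci, or came next to the head, in every library, while its standing in the whole list ranged from the middle in the list of 18 to near the top in the list of 86.

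Locus 15, at chr1:161499880-161501300, was the widest locus and held 2 places of signal. In replicate 1 of MDA-MB-231 it was 1 region of 1420 bp, with a score of 27.5, the highest of the chromosome 1 loci in that list. Both MDA-LM2 libraries split it into 2 regions, whose highest positions lay 604 bp apart in replicate 1 and 659 bp apart in replicate 2. The left region was the stronger one in replicate 1 of MDA-LM2, with scores of 10.3 on the left and 7.58 on the right. In replicate 2 of MDA-LM2 the right one was stronger, with 14.2 against 10.9. Replicate 2 of MDA-MB-231 listed the left place only, as a region of 124 bp with a score of 11.7. The highest position of replicate 1 of MDA-MB-231, at 161501019, was closer to the right place. The libraries of each line thus differed in the side that was stronger or listed.

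Locus 14, at chr1:161493418-161493951, had scores of 25.6 and 13.3 in replicates 1 and 2 of MDA-MB-231 and of 12.2 in replicate 2 of MDA-LM2, and replicate 1 of MDA-LM2 did not list it. Among the chromosome 1 regions of its own list it ranked 3 of 20, 2 of 4 and 11 of 13 in that order. Its percentiles in the whole lists were 87.3, 41.2 and 37.4. It thus stood near the top of 1 list and below the middle of a list of each line.

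Locus 12, at chr1:161369196-161369897, was listed in replicate 1 of MDA-MB-231 and both MDA-LM2 libraries. Scores were 19.5, 8.46 and 13.4, at rank 9 of 20, 6 of 10 and 7 of 13 among the chromosome 1 regions and at percentiles 66.7, 40 and 49.5 of the whole lists. Between loci 12 and 14 no library listed anything except locus 13, a region of 113 bp in replicate 1 of MDA-MB-231, named here after its values were seen. Its score of 12.05 was the lowest of the 20 chromosome 1 regions of that list. Empty stretches of 54.6 kb and 68.8 kb lay to its left and right. On the far side of locus 16, after 71.4 kb without regions, replicate 1 of MDA-MB-231 alone listed loci 17 to 19. Their scores ran from 12.4 to 19.6.

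Group A held regions in all libraries. Of its 9 loci, 1 was listed in at least 3 libraries, against 7.23% of all merged regions of the series. Locus 5, at chr1:145399002-145399607, was listed in all 4. Its scores were 24.6 and 12.9 in replicates 1 and 2 of MDA-MB-231 and 10.9 and 15.5 in replicates 1 and 2 of MDA-LM2, with pile-ups of 35, 18, 16 and 21. It ranked 4 of 20, 3 of 4, 3 of 10 and 3 of 13 among the chromosome 1 regions. In the whole lists it stood at percentiles 85.3, 23.5, 76.5 and 64.5, which is above the middle except in the list of 18. The highest positions of the 4 libraries lay within 101 bp of each other.

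Locus 5 closes a tight row of 4 loci, 2 to 5, that replicate 1 of MDA-MB-231 listed in full. Its highest positions there were 1167, 839 and 1621 bp apart. The other libraries listed parts of the row. Locus 2, at chr1:145395272-145395838, was shared with replicate 2 of MDA-LM2, with scores of 21.6 in replicate 1 of MDA-MB-231 and 12.8 in replicate 2 of MDA-LM2. Locus 3, at chr1:145396649-145397294, was shared with replicate 1 of MDA-LM2, with scores of 19.3 in replicate 1 of MDA-MB-231 and 7.86 in replicate 1 of MDA-LM2, and the highest positions were 7 bp apart. Locus 4 was in replicate 1 of MDA-MB-231 alone, with a score of 15.4, the lowest of the row. The MDA-LM2 libraries thus each held locus 5 and a different second member of the row.

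After locus 5 came 3.20 Mb without a region. The rest of group A consisted of loci listed in 1 library only, as were 62.8% of all merged regions of the series. Locus 6 was in replicate 1 of MDA-LM2, locus 7 in replicate 2 of MDA-LM2, and loci 8, 9 and 10 in replicate 1 of MDA-MB-231. No 2 libraries overlapped anywhere in this stretch, where locus 6 lay 437 kb from locus 7 and locus 7 lay 259 kb from locus 8. Scores were 8.32 at locus 6 and 13.6 at locus 7. Those of loci 8 to 10 ran from 12.7 to 20.7. This part of chromosome 1 is rich in segmental duplications, and whether these regions are copies of the same sequence was not tested.

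Group C consisted of 2 adjacent loci. Locus 20, at chr1:167683755-167684319, was listed in replicate 1 of MDA-MB-231 and in both MDA-LM2 libraries. Scores were 18.4 in replicate 1 of MDA-MB-231, 12.6 in replicate 1 of MDA-LM2 and 14.6 in replicate 2 of MDA-LM2. It ranked 11 of 20, 2 of 10 and 4 of 13 among the chromosome 1 regions and stood at percentiles 60.2, 90.6 and 59.7 of the whole lists. Its standing was thus about the same in replicate 1 of MDA-MB-231 and replicate 2 of MDA-LM2 and higher in replicate 1 of MDA-LM2. Replicate 2 of MDA-MB-231 did not list it. Locus 21 lay 211 bp further on and was in replicate 1 of MDA-MB-231 alone, with a score of 16.5 and its highest position 865 bp from that of locus 20.

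Group D was 1 locus, number 23, at chr1:249167801-249168269, the last region on chromosome 1 in any list. Both MDA-LM2 libraries listed it and neither MDA-MB-231 library did. Its score was 9.22 in replicate 1 of MDA-LM2 and 12.4 in replicate 2 of MDA-LM2, with pile-ups of 11 and 17. These stood at percentiles 49.4 and 40.1 of the lists, below the middle in both. The highest positions were 61 bp apart. The nearest region of replicate 1 of MDA-MB-231 was 20.4 Mb away. A locus in the 2 MDA-LM2 lists only is not shown to differ between the lines, since levels below a list's threshold were not used here and the pattern has no test at 2 libraries per line.

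Of the 3 loci that stand alone, locus 22, at chr1:204475325-204476570, was listed in 3 libraries. Scores were 17.8 in replicate 1 of MDA-MB-231, 8.17 in replicate 1 of MDA-LM2 and 15.7 in replicate 2 of MDA-LM2. Its ranks among the chromosome 1 regions were 12 of 20, 8 of 10 and 2 of 13. In the whole lists it stood at percentiles 57.2, 29.4 and 65.2. The libraries of MDA-LM2 put it on opposite sides of the middle of their lists, with highest positions 10 bp apart. In replicate 1 of MDA-MB-231 the region was 1142 bp wide, with its highest position 12.5% of the way from its left end. Loci 1 and 11 were listed in replicate 1 of MDA-MB-231 and replicate 2 of MDA-LM2. Their scores ran from 12.9 to 22.2 in the former and from 11.9 to 12.3 in the latter. Locus 1, at 94.3 Mb, was the only locus from 2 to 120 Mb. In the gene order of the RefSeq table, 23 tRNA genes precede TRR-TCT1-1 on the chromosome. They are counted from the chromosome's start, whereas the rule began at 2 Mb. Locus 1 was not tied to TRR-TCT1-1 or to any other gene.

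For the 12 loci of at least 2 libraries, taking the strongest region of each library, the highest positions differed by a median of 103 bp. The smallest spread was 7 bp and the largest 842 bp, the latter at the double locus 15. In 10 of the 12 loci the spread was at most 250 bp, against 85.0% of the 293 merged regions of at least 2 libraries in the whole series, whose median was 66 bp. The chromosome 1 loci were thus near the background here, and merging by overlap itself limits the spread. Sheared fragments were 200 to 1000 bp long, per the protocol.

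**Figure D3:**
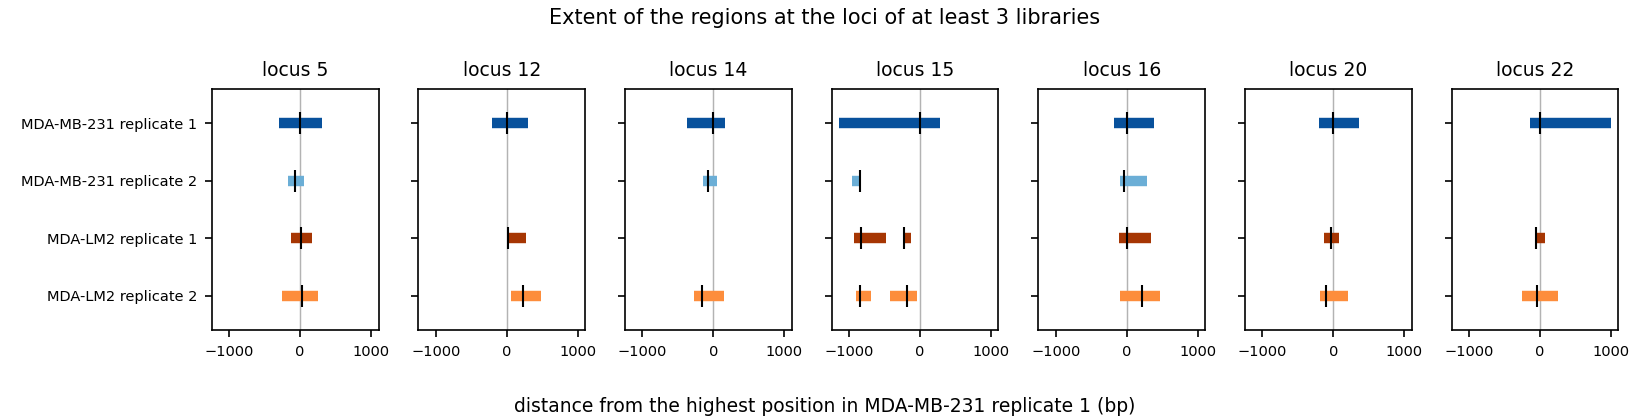
For the 7 loci listed in at least 3 libraries, bars show each library's regions against the distance in bp from the highest position in replicate 1 of MDA-MB-231, and black ticks mark each region's highest position. At locus 15 both MDA-LM2 libraries have 2 regions where replicate 1 of MDA-MB-231 has 1 of 1420 bp.

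The longer the other list, the more of the chromosome 1 regions of replicate 1 of MDA-MB-231 it held. Of the 20 regions of replicate 1 of MDA-MB-231, 4 were found in replicate 2 of MDA-MB-231 (20%, exact 95% interval 5.73 to 43.7%, against 2.48% of its whole list). Replicate 1 of MDA-LM2 held 7 of the 20 (35%, 15.4 to 59.2%, against 9.75%), and replicate 2 of MDA-LM2 held 10 (50%, 27.2 to 72.8%, against 46.7%). The last share was near that of the whole list. All 4 regions of replicate 2 of MDA-MB-231 were found in replicate 1 of MDA-MB-231 and in replicate 2 of MDA-LM2 (against 88.9% of its list in each), and 3 of 4 in replicate 1 of MDA-LM2 (against 55.6%). These rest on 4 regions.

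Most chromosome 1 regions of each MDA-LM2 list were found in replicate 1 of MDA-MB-231, as were most regions of those whole lists. Of the 10 regions of replicate 1 of MDA-LM2, 8 were found in replicate 1 of MDA-MB-231 (80%, exact 95% interval 44.4 to 97.5%, against 84.9% of the whole list). Replicate 2 of MDA-LM2 also held 8 of the 10 (against 65.1%), and replicate 2 of MDA-MB-231 held 3 (against 11.6%). Of the 13 regions of replicate 2 of MDA-LM2, 11 were found in replicate 1 of MDA-MB-231 (84.6%, 54.6 to 98.1%, against 66.5%). Replicate 1 of MDA-LM2 held 8 of the 13 (61.5%, 31.6 to 86.1%, against 11.2%), and replicate 2 of MDA-MB-231 held 4 (against 3.39%). The 2 regions of each MDA-LM2 list at locus 15 share 1 region of replicate 1 of MDA-MB-231 and are not separate finds. These shares describe lists and were not tested against the rest of the series. A required reciprocal overlap of 50% lowered the share of replicate 2 of MDA-LM2 found in replicate 1 of MDA-MB-231 from 84.6% to 38.5%, and the reverse share from 50% to 25%.

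The chromosome 1 loci were of middling strength in their lists. Scores in replicate 1 of MDA-MB-231 ran from 12.05 to 27.5, with a median of 18.9, against a list median of 16.9 and a list maximum of 128. Of the 20 regions, 12 had a score above the list median (50.0% of the whole list by construction). The 4 regions of replicate 2 of MDA-MB-231 had scores from 11.7 to 13.8, and 1 lay above the list median (50.0%). Scores in replicate 1 of MDA-LM2 ran from 7.58 to 13.3, with 4 of 10 above the list median (50.0%), and in replicate 2 of MDA-LM2 from 10.9 to 18.7, with 6 of 13 above it (50.0%). Median percentiles were 62.7, 32.4, 44.7 and 49.5 in the same order of libraries. None of the 47 regions had an infinite log p score, which 13 of all 1222 regions carry (1.06%), in 3 of the lists.

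**Figure D4:**
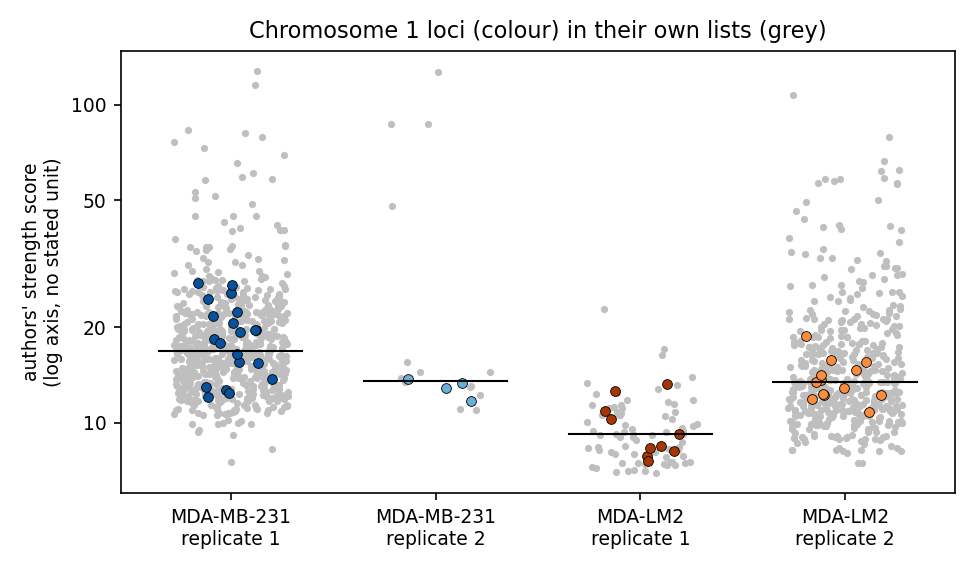
Points are the authors' strength scores (vertical axis, log scale, no stated unit) of all regions of each library, with the chromosome 1 loci in colour, all other regions in grey and the median of the list as a line. The coloured points lie around the median line, and the highest scores of each list, up to 128 in replicate 1 of MDA-MB-231, are grey.

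By pile-up height, no library had more of these loci above its list median than by score. For replicate 1 of MDA-MB-231, 8 of 20 regions were above the list's median height (48.9% of the whole list), and for replicate 2 of MDA-MB-231, 1 of 4 (33.3%). In replicates 1 and 2 of MDA-LM2, 4 of 10 (45.3%) and 3 of 13 (47.9%) were above it. Heights of the chromosome 1 regions ran from 15 to 41, 13 to 18, 8 to 19 and 13 to 30 in the 4 libraries.

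The regions were wide for their lists. Their median width in replicate 1 of MDA-MB-231 was 511 bp against 279 bp for the list, and 16 of 20 regions were wider than the list median (49.5% of the whole list). In replicate 2 of MDA-MB-231 it was 202.5 bp against 171.5 bp, with 3 of 4 wider (50.0%). In replicate 1 of MDA-LM2 it was 274 bp against 163.5 bp, with 7 of 10 wider (50.0%), and in replicate 2 of MDA-LM2 it was 393 bp against 219.5 bp, with 10 of 13 wider (50.0%). The direction was the same in all 4 libraries, and the difference was not tested.

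In replicate 1 of MDA-MB-231, loci that other libraries also listed had higher median scores. The 9 loci of that library alone had a median score of 15.4 (12.05 to 20.7). The 4 loci of 2 libraries had 20.5 (12.9 to 22.2) and the 4 of 3 libraries had 19.0 (17.8 to 25.6). The 3 loci of all 4 libraries had 27.2 (24.6 to 27.5). Heights followed the same order at the ends, with medians of 22 for loci of 1 library and 41 for loci of all 4. The rest of the list was not split in this way, so the order is not shown to be particular to these loci. Between libraries, the order of shared loci was closer by height than by score. Spearman's rho of the scores was 0.43 between replicate 1 of MDA-MB-231 and replicate 1 of MDA-LM2 over 7 shared loci, 0.091 between replicate 1 of MDA-MB-231 and replicate 2 of MDA-LM2 over 10, and 0.39 between the MDA-LM2 replicates over 7. For the heights of the same pairs it was 0.59, 0.39 and 0.69. These correlations are across loci within libraries, are given as a description, and share the depth and threshold of each list.

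Other tRNA-rich stretches were set beside the chromosome 1 loci. The cluster on chromosome 6 from 26 to 29 Mb had 43, 1, 3 and 14 regions in both replicates of MDA-MB-231 and then of MDA-LM2, where the chromosome 1 loci had 20, 4, 10 and 13. Of its 42 merged loci, 4 were listed in at least 3 libraries (9.52%) and none in all 4. Replicate 2 of MDA-MB-231, with its 1 region, allowed at most 1 locus in all 4. On chromosome 17 from 8 to 9 Mb the libraries had 11, 0, 7 and 10 regions. Here 4 of 11 merged loci (36.4%) were in at least 3 libraries, near the 30.4% of the chromosome 1 loci. Since replicate 2 of MDA-MB-231 listed nothing there, no locus could be in all 4. Of the regions of the chromosome 1 and chromosome 6 stretches together, chromosome 1 held 31.7% and 80% in replicates 1 and 2 of MDA-MB-231 and 76.9% and 48.1% in replicates 1 and 2 of MDA-LM2. The means were 55.9 ± 34.1% and 62.5 ± 20.3% (SD, n = 2 each), and a two-sided exact permutation test gave p = 1, with 0.333 the smallest possible. The shares of shared loci were not tested between chromosomes.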

How the data were processed

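POLR3A ChIP-seq of MDA-MB-231 and MDA-LM2 (2 libraries each) was analysed from 1 deposited region list per library. Fixation took 10 minutes in 1% formaldehyde and reads were 50 nt, per the labels' protocols. The submitters' processing notes name hg19, Bowtie2 2.2, bedtools and DESeq, with no role. The caller of the regions, its threshold and its use of input are not stated in these sources. Each list has 11 columns without a header, so meanings were read from the values. The authors deposited a strength score, a log p score of unknown base (below -10 in every finite case), a pile-up signal (whole-number height, no depth correction seen) and a percent that places the highest position in the region. Depth is unknown. Positions are printed as deposited, and the base of the starts (0 or 1) is not stated.

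Regions were called shared at an overlap of at least 1 bp and merged by chained overlaps, so libraries at a merged locus need not overlap directly. Region counts of the lines were tested by exact permutation (two-sided), and shares have exact Clopper-Pearson 95% intervals (Python 3.11.15, scipy 1.17.1, pandas 2.3.3). Overlap and merging were tested on simulated lists. Members and lists were chosen with earlier results of these data known. Loci described one by one are those of groups A to D in at least 2 libraries, single loci in at least 3, and loci of both libraries of 1 line only, 10 in all. Others named were chosen after their values were seen. Alternatives were a stricter threshold, other overlap rules, other merging, leaving out libraries and a replicate block, and, added after seeing the data, the strongest 18 regions of each list. No hg19 genome or annotation was used here.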

Additional observations from a re-analysis of the deposited data

How the results depend on the processing

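The count difference between the lines (-0.5) passed no threshold under any alternative, and the design allows none. Without 1 library each it ran from -8.5 to 7.5, and it was positive without replicate 1 of MDA-MB-231 (7.5) or replicate 1 of MDA-LM2 (1). With a replicate block it stayed at -0.5 (exact sign-flip p = 1, smallest possible 0.5). Nothing in the labels says that the numbers pair libraries. For each merged region, listing in replicate 1 minus listing in replicate 2 was taken in each line. Across regions, the correlation of these differences between the lines was 0.36 over all merged regions and 0.015 over the 23 loci. Loci in all libraries went from 3 to 1 among the strongest 50% of each list by log p score, to 0 among the strongest 18 regions and to between 3 and 6 without 1 library. Loci in at least 3 libraries (or all but 1 of those left) went from 7 to 4 with reciprocal overlap of 50%, to 0 among the strongest 18 and to between 8 and 12 without 1 library. Those strongest 18 held 0, 4, 2 and 0 chromosome 1 regions in both replicates of MDA-MB-231 and then of MDA-LM2. No locus could thus be in at least 3 of these lists, and both counts of 0 were fixed in advance. With reciprocal overlap, 38.5% of replicate 2 of MDA-LM2 was found in replicate 1 of MDA-MB-231 (84.6% before), and 25% the other way (50% before). By pile-up height in place of score, the median percentile went from 62.7 to 47.9 and from 32.4 to 41.2 in replicates 1 and 2 of MDA-MB-231, and from 44.7 to 35.9 and from 49.5 to 43.1 in replicates 1 and 2 of MDA-LM2. Heights are whole numbers, and regions of equal height do not count as lower in these percentiles. Causes were not tested, and the shortened lists held fewer regions. Unknown depth limits every absence: a locus not listed may be bound.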
